A study of Mus musculus with 6 samples.

Results

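The oligoadenylate synthetases are a family of interferon-induced enzymes. They were followed here through 10 genes, Oas1a, Oas1b, Oas1c, Oas1e, Oas1f, Oas1g, Oas2, Oas3, Oasl1 and Oasl2, out of 23981 genes that the annotation of the array lists. The genes were chosen by symbol. Of the 10, 9 have a probe set of their own, and Oas1a is measured only by a probe set that it shares with Oas1g. The family was picked because the difference of Oas1g between the substrains was already known from these arrays, so the substrain differences of its members are given as a description and no test is built on them.

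The samples are livers of 6 male mice, 3 of the substrain Balb/c, called WT in the labels, and 3 of the related substrain Balb/cBy, called KD. The labels name no gene for KD; the BALB/cBy substrain is known as background to carry a spontaneous deletion in Acads, the short-chain acyl-CoA dehydrogenase gene. Both groups were 20 weeks old, were caged singly and had eaten a diet with 58% of its energy as fat for 12 weeks, so no group on a normal diet stands beside them. Total RNA of each liver was hybridised to 1 Affymetrix array, and values are log2 signals, on which a difference of 1 is a doubling. The labels describe the 3 arrays of a substrain as biological replicates.

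Oligoadenylate synthetases bind double-stranded RNA, a sign of viral infection, and join ATP into short chains with 2′-5′ links, known as 2-5A. This second messenger sets off the cutting of viral and cellular RNA. The genes are switched on through the type I interferon receptor and a factor that holds STAT2 and IRF9 and binds a DNA element called the interferon-stimulated response element. Mice have many Oas1 copies where humans have a single OAS1 gene, and several of the mouse copies are known to lack synthetase activity.

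The arrays were alike: Pearson correlations across the tested probe sets ran from 0.977 to 0.990 within a substrain and from 0.977 to 0.991 between substrains, over probe sets that are not independent replicates. The 8 hepatocyte markers (Alb, Ttr and others) averaged between 13.37 and 13.53 on every array. The array weights of limma, which fall where an array departs from its group, were 0.479 for Balb/cBy replicate 1 and 0.626 for Balb/c replicate 3; the other 4 arrays had 0.828 to 2.42. Values of single genes under 8.02 may not be told from background; this is the 95th percentile of the means of 1106 olfactory receptor genes, which liver is not known to use.

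Oas1g had the widest gap between the substrains in the family, which is the value it was chosen for. Its log2 values (probe set 17452115) were 6.11, 5.998 and 6.79 in Balb/c and 7.78, 8.18 and 7.90 in Balb/cBy. Every Balb/cBy mouse was above every Balb/c mouse, with a gap of 0.99 between the nearest ones. The group means were 6.30 ± 0.43 (SD, n = 3) and 7.95 ± 0.21 (SD, n = 3), with a difference of 1.65 ± 0.21 (SE, 95% interval 1.17 to 2.13). Both means were under the olfactory receptor level, where a signal may not be told from background, and RMA, the method behind the values, compresses dim signals, so no fold is given.

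**Figure D1:**
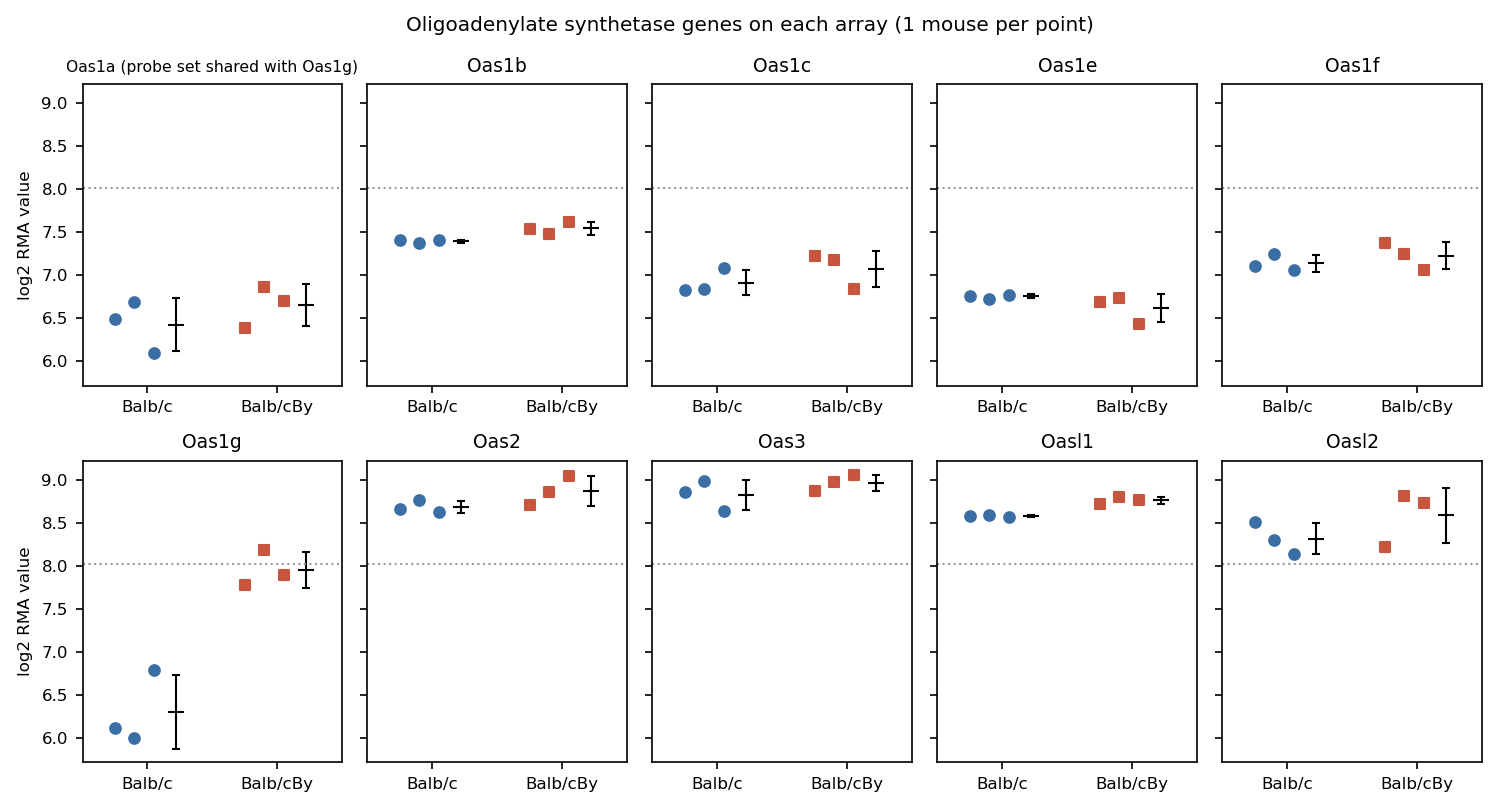
Log2 value (vertical axis) of the 10 oligoadenylate synthetase genes on each array, with Balb/c as circles, Balb/cBy as squares, and the mean with SD as a bar (n = 3); the dotted line is the olfactory receptor level of 8.02. Oas1g is the 1 gene with a wide gap between the groups (5.998 to 6.79 against 7.78 to 8.18). Heights are not comparable between panels, because each probe set has its own response.

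Oas1a, a close relative of Oas1g and its neighbour on chromosome 5, encodes an active synthetase, as does Oas1g. The probe set that the 2 genes share (17452126) read 6.50, 6.69 and 6.09 in Balb/c and 6.38, 6.87 and 6.70 in Balb/cBy. The groups overlapped, and the difference was 0.22 ± 0.18 (SE, 95% interval -0.19 to 0.64). Thus the 2 probe sets that carry the Oas1g symbol gave different pictures, and when they were averaged the Oas1g difference was 0.94 in place of 1.65. The sources used here do not say which transcript parts either probe set covers, and on the shared one the RNA of the 2 copies cannot be told apart. On Balb/c replicate 3 the probe sets moved in opposite directions: it was 0.49 above its group mean for Oas1g and 0.33 below it for the shared probe set.

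The stretches of DNA just before the starts of Oas1g and Oas1a are printed because the copies are almost the same there, although the probe sets differed. They are followed by those of Oas3 and Oas1c, the other members with a match to the core of the response element. All are from RefSeq on build GRCm38.p6, chromosome 5, minus strand, written in the direction of the gene; capitals mark every match, on either strand, to a pair of GAAA half-sites with any 2 bases between them, overlapping matches merged.
Oas1g, chr5:120887614-120887713, bases 100 to 1 before the start: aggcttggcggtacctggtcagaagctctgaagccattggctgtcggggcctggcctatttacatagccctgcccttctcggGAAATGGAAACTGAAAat
Oas1a, chr5:120907526-120907625, bases 100 to 1 before the start: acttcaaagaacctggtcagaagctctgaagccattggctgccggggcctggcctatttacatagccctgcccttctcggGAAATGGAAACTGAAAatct
Oas3, chr5:120777660-120777759, bases 100 to 1 before the start: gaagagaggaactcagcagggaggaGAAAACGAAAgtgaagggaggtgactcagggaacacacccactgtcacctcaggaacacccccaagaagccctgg
Oas1c, chr5:120812585-120812684, bases 170 to 71 before the start: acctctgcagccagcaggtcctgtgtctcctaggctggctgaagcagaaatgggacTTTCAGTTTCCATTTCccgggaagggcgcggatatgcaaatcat

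Oas1g and Oas1a each held 2 overlapping matches, beginning 18 and 12 bases before the start of Oas1g and 20 and 14 bases before that of Oas1a. The 2 promoters were identical over a run of 56 bases that includes both matches up to the start of Oas1g, and over the 100 bases that end with the second match 91 were the same. Oas3 held 1 match, beginning 75 bases before its start, and Oas1c held 2 overlapping ones on the opposite strand, between 114 and 99 bases before it. The table of promoters holds 7 of the 10 members, and 4 of these 7 had a match in the 250 bases before the start; Oas1f, Oasl1 and Oasl2 had none. The same core was found in 2.98% of all 32851 promoter windows of that length, or 3.46% of the 27025 genes they belong to, and in 14 of 39 interferon-stimulated genes of the list below (35.9%). A second element, TTC and GAA with any 3 bases between them, also known from interferon-responsive genes, was found in 7.02% of the windows, or 8.13% of the genes, in 7 of the 39 interferon-stimulated genes (17.9%) and, among the members, only in Oas1a, beginning 98 bases before the start; the pattern is symmetric, so the match counts on both strands. The letters are those of the reference strain C57BL/6J, and a match describes these letters alone.

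The other Oas1 copies differed little between the substrains, and the values of all of them were under the olfactory receptor level. Oas1b, the gene behind resistance to flaviviruses, is listed by RefSeq as a transcribed pseudogene in the reference strain, and most laboratory strains are known to carry a stop codon in it. Its values were 7.41, 7.38 and 7.41 in Balb/c and 7.54, 7.48 and 7.62 in Balb/cBy. The groups did not overlap, but the gap was 0.07, and the difference of 0.15 ± 0.09 (SE, 95% interval -0.05 to 0.35) was small.

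Oas1c, Oas1e and Oas1f are further copies in the same gene cluster. Oas1c read 6.82, 6.84 and 7.08 in Balb/c and 7.22, 7.17 and 6.84 in Balb/cBy (difference 0.16 ± 0.13 SE). Oas1f read 7.10, 7.25 and 7.07 against 7.37, 7.25 and 7.06 (difference 0.09 ± 0.11 SE). In both genes Balb/cBy replicate 3 was the lowest of its group and lay within the Balb/c values or below them. Oas1e was the 1 member with a lower mean in Balb/cBy: it read 6.76, 6.73 and 6.77 in Balb/c and 6.69, 6.73 and 6.44 in Balb/cBy, a difference of -0.13 ± 0.11 (SE) that was -0.04 without Balb/cBy replicate 3.

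The members with signals above the olfactory receptor level in both groups were Oas2, Oas3, Oasl1 and Oasl2, and none of them came near the difference of Oas1g. Oas2, an enzyme with a doubled synthetase unit, read 8.66, 8.76 and 8.62 in Balb/c and 8.70, 8.85 and 9.04 in Balb/cBy, a difference of 0.19 ± 0.11 (SE, 95% interval -0.07 to 0.44). Oas3, which has a tripled unit and binds long RNA, read 8.86, 8.98 and 8.63 against 8.87, 8.97 and 9.05, a difference of 0.14 ± 0.12 (SE, 95% interval -0.12 to 0.41). In Oas2 and Oas3 alike the groups overlapped, the highest array was Balb/cBy replicate 3 and the lowest Balb/c replicate 3.

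Oasl1 and Oasl2 are the synthetase-like genes, which encode ubiquitin-like domains; Oasl1 lacks synthetase activity and holds back translation of Irf7, while Oasl2 is an active enzyme. Oasl1 varied little from mouse to mouse: 8.57, 8.59 and 8.57 in Balb/c and 8.72, 8.80 and 8.76 in Balb/cBy. The groups were apart by 0.13, and the difference was 0.18 ± 0.08 (SE, 95% interval -0.01 to 0.38). Oasl2 varied more, at 8.50, 8.30 and 8.14 in Balb/c and 8.22, 8.80 and 8.73 in Balb/cBy, so that Balb/cBy replicate 1 fell among the Balb/c mice. Its difference of 0.27 ± 0.17 (SE, 95% interval -0.12 to 0.66) was the second largest of the family.

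In limma's fit over all 25335 tested probe sets, 0 of the 10 members passed an adjusted p of 0.05, beside a background of 0% of all probe sets. With array weights Oas1g was called, beside 0.209% of all probe sets. It was also called without Balb/c replicate 3 (beside 0.00789%, which is 2 probe sets with Oas1g among them). The same held without Balb/c replicate 3 and Balb/cBy replicate 1 together (beside 0.0553%). For Oas1g, Balb/c replicate 3 (6.79) was the Balb/c array nearest to Balb/cBy, so leaving it out widened the difference to 1.89. Without Balb/c replicate 1 or 2, limma's adjusted p for Oas1g was 0.516 and 0.507. Nothing is read from these calls, since Oas1g was chosen for this contrast. At an unadjusted p under 0.05 there was 1 member, Oas1g, beside 3.83% of all probe sets. The groups did not overlap, with Balb/cBy higher, in 3 of the 10 members, Oas1b, Oas1g and Oasl1, beside 4.48% of all probe sets, and nothing is read from these shares since the contrast chose the family. Of the members 9 had a higher mean in Balb/cBy, beside 49.1% of all probe sets. The median difference of the members was 0.17, and 0.16 over the 9 without Oas1g, while that of all probe sets was -0.0028.

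**Figure D2:**
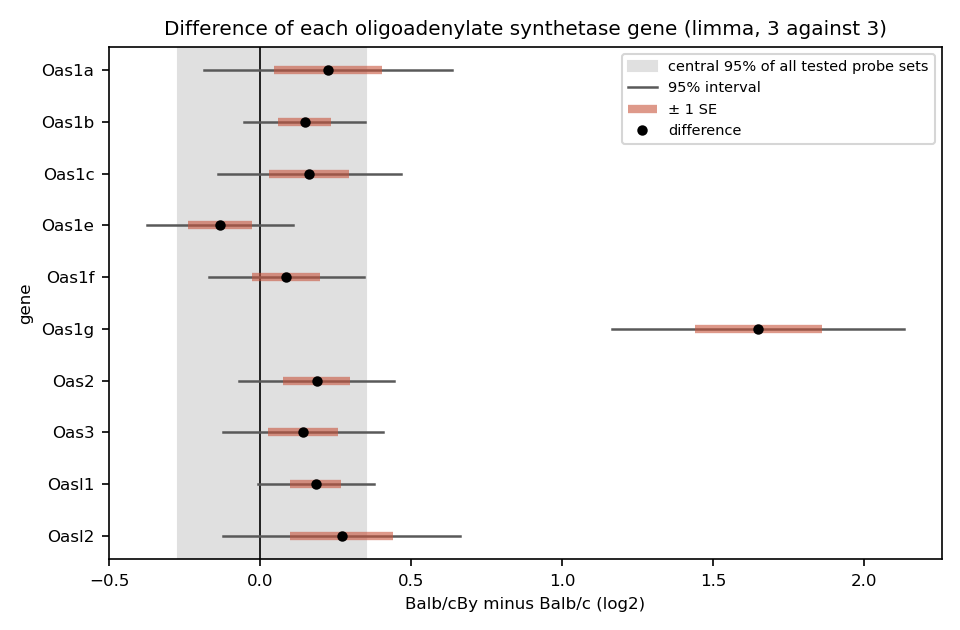
Difference between Balb/cBy and Balb/c (log2, horizontal axis) of each of the 10 genes from limma (3 against 3 arrays), with ± 1 SE as a thick bar and the 95% interval as a line; the grey band spans the central 95% of the differences of all tested probe sets (-0.27 to 0.35). Oas1g, at 1.65, lies outside the band, and the other 9 genes, from -0.13 to 0.27, lie inside it.

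Along chromosome 5 the Oas1, Oas2 and Oas3 genes form 1 cluster and the Oasl genes a second one. The order was read from the RefSeq table of GRCm38.p6. In the first cluster Oas1g stands between Oas1h and Oas1a, where Oas1h differed by 0.19 ± 0.12 (SE), with overlapping groups and all values under the olfactory receptor level. Oas1a has no value of its own, since its probe set also takes up Oas1g. The 10 genes next to the cluster, from Rita1 to Dtx1 on one side and from Rph3a to Trafd1 on the other, ranged from -0.20 to 0.23. The groups overlapped in all 10, beside 7.95% of all probe sets in which they did not overlap. Rita1 was read from a probe set shared with Iqcd. Of these 10 neighbours 0 passed an adjusted p of 0.05, and 0 had an unadjusted p under 0.05, beside 0% and 3.83% of all probe sets. So few genes cannot be told from these shares.

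Of the 10 genes around Oasl2 and Oasl1, Acads had the largest difference. It read 11.53, 11.46 and 11.28 in Balb/c and 10.60, 10.79 and 10.93 in Balb/cBy, a difference of -0.65 ± 0.12 (SE, 95% interval -0.93 to -0.38). It is the third gene with a probe set after Oasl1, behind 2210016L21Rik, at -0.16 ± 0.10 (SE), and Sppl3, a signal peptide peptidase, at 0.03 ± 0.11 (SE). The other 9 neighbours, without Acads, ranged from -0.16 to 0.28. By limma's adjusted p none of the 10 passed, and Acads alone had an unadjusted p under 0.05, beside 0% and 3.83% of all probe sets. The groups were apart in 2 of the 10, beside 7.95% of all probe sets. These were Acads and 4930515G01Rik, at 0.08 ± 0.08 (SE) and under the olfactory receptor level. Here too, so few genes cannot be told from these shares.

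**Figure D3:**
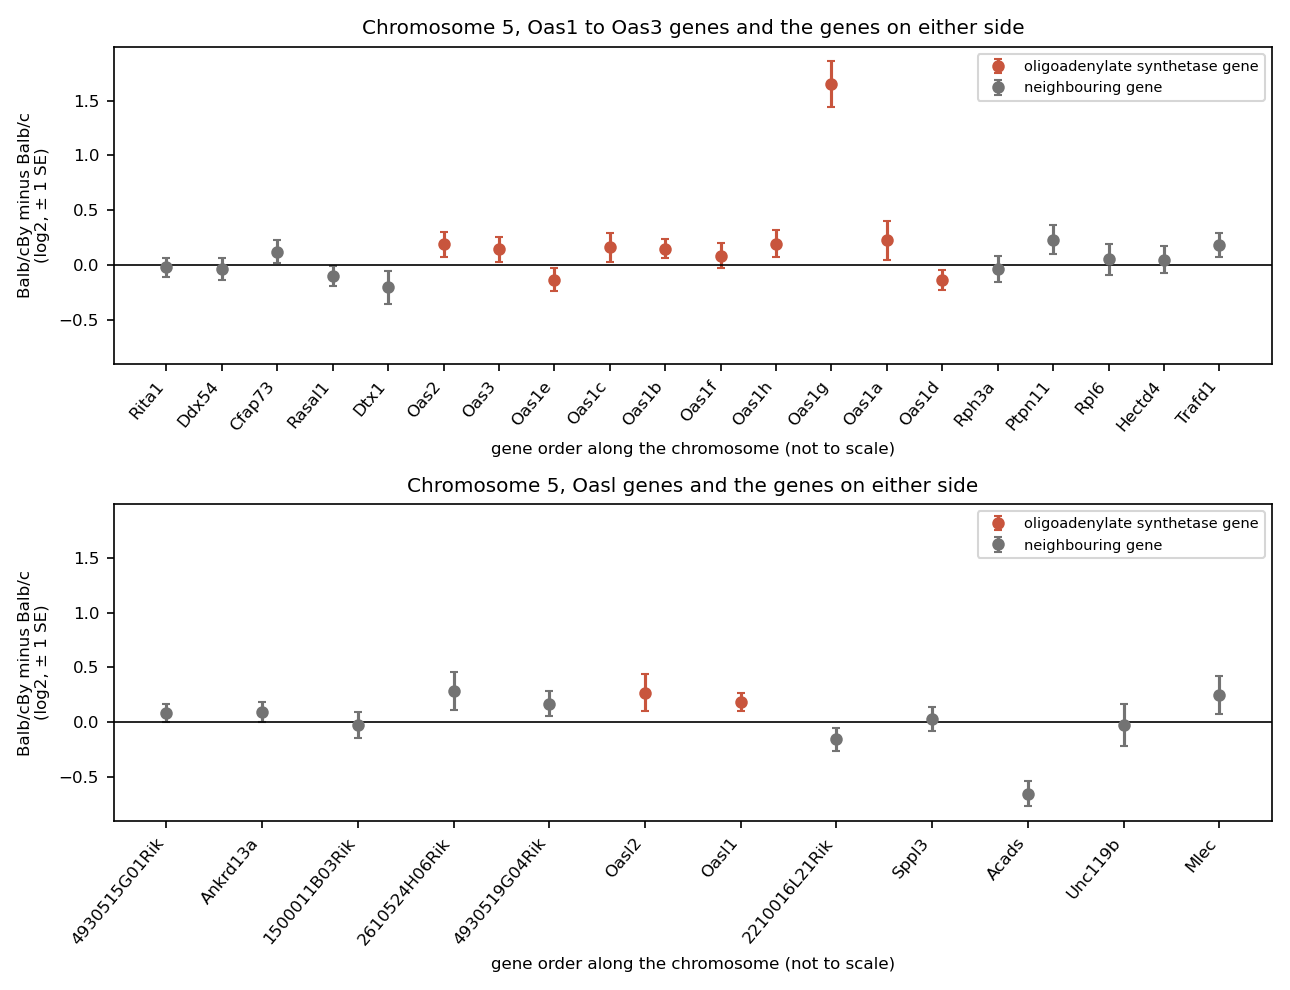
Difference between Balb/cBy and Balb/c (log2, vertical axis, ± 1 SE) of the oligoadenylate synthetase genes, in red, and of 5 measured genes on each side, in grey, in their order along chromosome 5 (distances not to scale). Oas1g, at 1.65, rises from a row of genes between -0.20 and 0.23, and Acads, at -0.65, is the lowest gene beside the Oasl pair.

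The interferon pathway around the family showed small differences, most of them towards Balb/cBy. Over 4 lists of pathway genes, 60 of 76 measured genes were higher in Balb/cBy, beside 49.1% of all probe sets, with a median of 0.07. Some lists outside the pathway leaned the same way: 8 of 11 housekeeping genes (median 0.08), 7 of 8 stellate cell markers and 5 of 6 endothelial markers were higher. So were 6 of 8 neutrophil and 5 of 8 hepatocyte markers. Other lists were even or leaned the other way. Higher there were 4 of 8 Kupffer cell and macrophage markers and 3 of 7 plasmacytoid dendritic cell markers. The same held for 2 of 6 B and plasma cell, 2 of 6 cholangiocyte and 1 of 9 T and NK cell markers. None of the 76 passed limma's adjusted p of 0.05, beside 0% of all probe sets called. In the same fit 11 of the 76 had an unadjusted p under 0.05, beside 3.83% of all probe sets.

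Of 15 measured genes of interferon reception and signalling, 13 were higher (median 0.09). Stat2, the partner of IRF9 in the factor that binds the response element, read 9.32, 9.50 and 9.45 in Balb/c and 9.72, 9.89 and 9.89 in Balb/cBy (0.41 ± 0.10 SE). Usp18, a feedback inhibitor of the receptor, read 8.91, 8.74 and 9.28 against 9.38, 9.99 and 9.53 (0.66 ± 0.19 SE). In both genes the groups were apart. Irf9 itself, at 0.25 ± 0.14 (SE), and Irf7, the factor that amplifies interferon production, at 0.17 ± 0.17 (SE), overlapped between the substrains.

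Of 49 measured interferon-stimulated genes, 3 of them on shared probe sets, 38 were higher (median 0.08), and the groups did not overlap in 5 with Balb/cBy higher and in 1 with it lower, beside 4.48% and 3.47% of all probe sets. Isg15, the ubiquitin-like modifier, read 7.40, 7.47 and 7.45 in Balb/c and 7.61, 7.93 and 7.84 in Balb/cBy (0.36 ± 0.11 SE), all under the olfactory receptor level. Lgals3bp, a secreted glycoprotein, differed by 0.35 ± 0.10 (SE) and Xaf1, a regulator of cell death, by 0.42 ± 0.13 (SE), each with the groups apart. These 3 genes had the smallest p of the list. The other antiviral effectors set by name overlapped between the substrains: Ifit1 differed by 0.13 ± 0.18, Mx1 by 0.11 ± 0.09, Mx2 by 0.12 ± 0.13 and Rsad2 by 0.06 ± 0.11 (SE). The means of Mx1, Mx2 and Rsad2 were under the olfactory receptor level, and RefSeq lists Mx1 and Mx2 as transcribed pseudogenes in the reference strain.

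Of 14 measured genes of nucleic acid sensing 10 were higher (median 0.06). Ikbke, a kinase that activates interferon regulatory factors, differed by 0.27 ± 0.09 (SE) with the groups apart, while Tlr7, a receptor for single-stranded RNA, at 0.36 ± 0.14 (SE), and Zbp1, a sensor of Z-form nucleic acids, at 0.29 ± 0.14 (SE), overlapped. The genes around the 2-5A messenger itself, of which 2 of 3 measured were higher (median 0.02), were close to even. Pde12 and Akap7, which both break 2-5A down, differed by 0.02 ± 0.11 and -0.04 ± 0.13 (SE), and Abce1, a protein of ribosome recycling, by 0.03 ± 0.21 (SE).

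Single arrays stood apart in both groups. Balb/c replicate 3 was the lowest array of its group in 6 of 10 family members, beside 39.3% of all probe sets, but the highest in 24 of 49 interferon-stimulated genes (49.0%), beside 33.0%. Balb/cBy replicate 1 was the lowest array of its group in 27 of 49 interferon-stimulated genes (55.1%) and in 6 of 10 family members, beside 34.9% of all probe sets, and replicate 2 was the highest in 27 (55.1%), beside 35.8%. The mean of the interferon-stimulated list was 8.43, 8.68 and 8.54 in Balb/cBy and 8.42, 8.42 and 8.50 in Balb/c. The lowest Balb/cBy array thus lay within the Balb/c range. Oas1g followed a like order within Balb/cBy, lowest on replicate 1 and highest on replicate 2, but there the lowest array was still 0.99 above the Balb/c mice.

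Genes whose course over the 6 arrays was most like that of Oas1g were sought next. Likeness was the root mean square difference between log2 values centred over the arrays, with 19374 genes compared. Left out of these were the family members, genes measured on a shared probe set, and genes with Gm, LOC or Rik symbols. The closest were Ighm, the heavy chain of immunoglobulin M (0.297), the interleukin 1 receptor gene Il1r1 (0.311), Kyat3, an aminotransferase of the kynurenine pathway (0.389), the endoplasmic reticulum protein gene Creld2 (0.392) and the sulfotransferase gene Sult5a1 (0.395). Among the family the closest was Oasl2, at 0.775, and the farthest Oas1e, at 0.930, with the median of all genes compared at 0.879. Ighm read 9.54, 9.40 and 9.63 in Balb/c and 10.58, 11.29 and 11.47 in Balb/cBy. The measure favours genes with a step between the substrains as large as that of Oas1g.

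**Figure D4:**
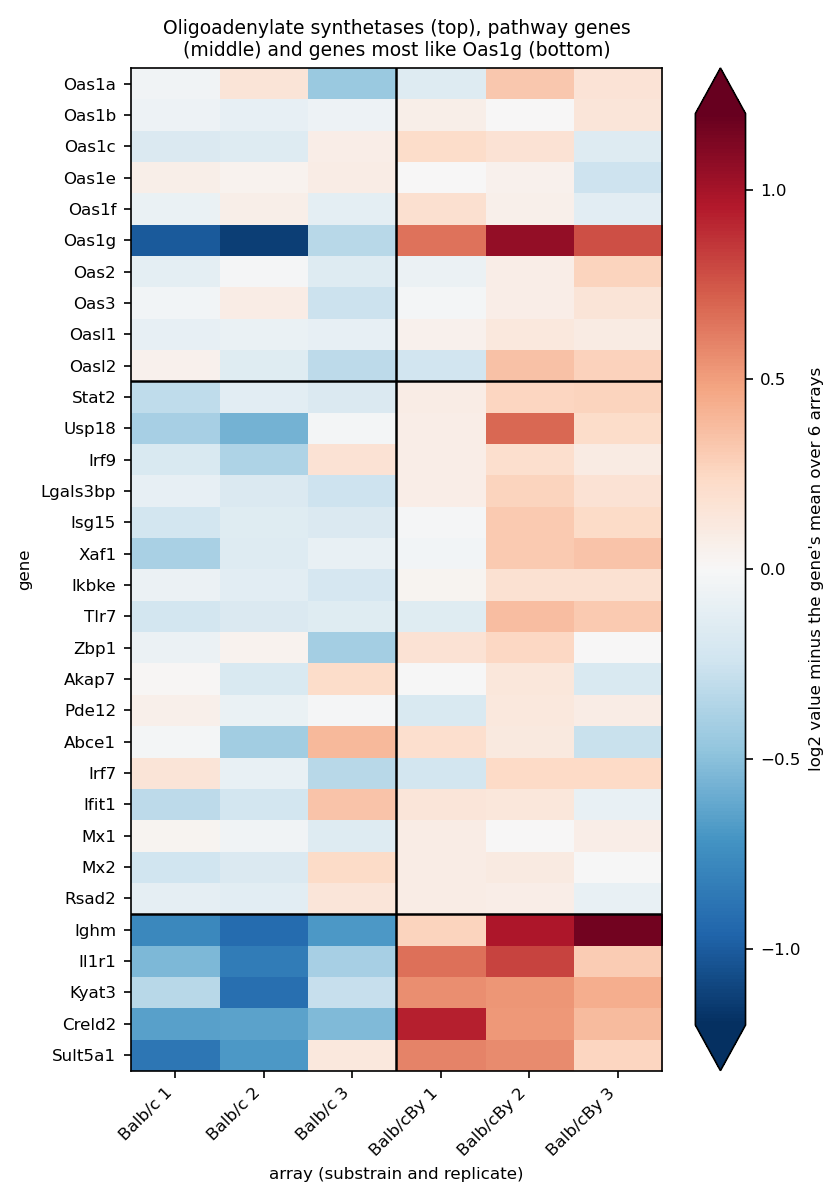
Colour shows the log2 value of a gene (rows) on an array (columns) minus the mean of that gene over the 6 arrays, with the scale ending at 1.2 in each direction: the 10 family members at the top, 17 named pathway genes in the middle and the 5 genes most like Oas1g at the bottom. Oas1g alone among the members goes from blue to a deep red between the substrains, while Stat2, Usp18 and Isg15 show a weaker step of 0.36 to 0.66.

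The family is made by hepatocytes and by immune cells, and in whole liver fewer cells of a type and less RNA per cell cannot be told apart. Of 8 neutrophil markers 6 were higher in Balb/cBy, and 3 had groups apart with Balb/cBy higher, beside 4.48% of all probe sets. The mean of the 8 ranged from 7.37 to 7.56 in Balb/c and from 7.59 to 7.67 in Balb/cBy, so the groups did not overlap. Of the 8, 4 were above the olfactory receptor level. Of the 3 with groups apart, S100a8, at 0.29 ± 0.12 (SE), and Retnlg, at 0.40 ± 0.11 (SE), were under that level. Cxcr2, at 0.13 ± 0.09 (SE), was above it. S100a9, also above it, differed by -0.0018 ± 0.22 (SE), and Mpo, under it, by -0.02 ± 0.09 (SE). Of 7 measured markers of plasmacytoid dendritic cells, a major source of type I interferon, 3 were higher, and the mean ranged from 7.78 to 7.93 in Balb/c and from 7.87 to 7.97 in Balb/cBy. Kupffer cell and macrophage markers ranged from 9.35 to 10.17 and from 9.60 to 10.06 (4 of 8 higher). T and NK cell markers ranged from 7.51 to 7.67 and from 7.42 to 7.53 (1 of 9 higher), and B and plasma cell markers from 7.64 to 7.80 and from 7.72 to 7.89 (2 of 6 higher, median -0.11). In the last list the B cell genes Cd79a, Cd79b and Ms4a1 were lower, at -0.17, -0.27 and -0.27. Their groups were apart, beside 3.47% of all probe sets apart in that direction. Cd79a and Ms4a1 were under the olfactory receptor level in both groups. Jchain, the joining chain of antibodies, was higher, at 1.12 ± 0.28 (SE), with means of 7.03 in Balb/c, under that level, and 8.15 in Balb/cBy. Of the other plasma cell markers, Sdc1 differed by -0.05 ± 0.13 and Mzb1 by 0.06 ± 0.12 (SE). Stellate cell markers ranged from 9.35 to 9.72 and from 9.59 to 9.92 (7 of 8 higher), and their median of 0.30 was the largest of these lists. In 2 of the 8 the groups were apart with Balb/cBy higher, beside 4.48% of all probe sets. Endothelial markers ranged from 9.83 to 9.94 and from 9.80 to 10.14 (5 of 6 higher). Cholangiocyte markers ranged from 7.57 to 7.65 and from 7.53 to 7.67 (2 of 6), and hepatocyte markers from 13.37 to 13.49 and from 13.38 to 13.53 (5 of 8). Of 11 measured housekeeping genes 8 were higher (median 0.08), with the smallest p for Tbp, at 0.42 ± 0.19 (SE). The part of these cell markers in the Oas1g difference was not tested.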

How the data were processed

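Liver RNA of 3 Balb/c and 3 Balb/cBy mice was measured on 1 array each, from 500 ng of total RNA. The deposited log2 values were made by the authors with RMA, per the submitters' processing notes; no software, version or genome build is stated in the sources used here. Of 41345 probe sets, the 25335 listed with at least 1 gene symbol were tested: 23525 with 1 symbol and 1810 with several, which were kept because Oas1a has no other. The substrains were compared by limma 3.58.1 under R 4.3.3 (group as the single term, empirical Bayes moderation, two-sided, p adjusted over the 25335 by Benjamini-Hochberg, threshold 0.05), after a check of the fit on simulated arrays. An exact permutation test of 3 against 3 cannot go below 0.1. The number of arrays limits the precision.

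A probe set of its own was preferred to a shared one for each gene, and among these the probe set with the highest mean stood for the gene. The members, gene lists and rules were chosen with earlier results of these data known. Named beside the members were, from each pathway list, the 3 genes of smallest p (1 for housekeeping), genes set by name, up to 5 neighbours on each side and the 5 genes most like Oas1g, predicted genes left out. The B cell, plasma cell and neutrophil markers were named after their values were seen. Lists were described by counts and medians. Alternatives were other moderation, array weights, a replicate block, other normalization, other sets of probe sets and left-out arrays.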

Additional observations from a re-analysis of the deposited data

How the results depend on the processing

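Other moderation, the replicate block and other sets of probe sets cannot change the difference of a probe set, so a kept direction there shows nothing. Averaging a gene's probe sets changed the difference of Oas1g alone among the members. With array weights, other normalization and left-out arrays the direction could turn. In these settings each of the 10 members kept its direction, except Oas1f. Oas1f turned to -0.0245 without Balb/c replicate 3 and Balb/cBy replicate 1 together and reached 0.17 at most when arrays were left out. With all arrays alike, the intervals of all members but Oas1g included 0. The count of members called was 0 with all arrays alike, and 1, Oas1g, with array weights, without Balb/c replicate 3 and without those 2 arrays together. Leaving out 1 array at a time gave 0 to 1 members and 0 to 6 of all probe sets, the highest counts being 2 without Balb/c replicate 3 and 6 without Balb/cBy replicate 1. All probe sets called numbered 53 with array weights and 14 without those 2 arrays. The difference of Oas1g ran from 0.94, as the mean of its 2 probe sets, to 1.98, with adjusted p from 0.00781 to 0.999. With the replicate number as a block, 0 probe sets and 0 members were called. Deviations of same-numbered arrays from their group means had correlations of -0.33, -0.18 and -0.25. Such deviations cancel within a group of 3, so these correlations cannot decide whether the numbers pair the mice. The labels do not state a pairing. The filter on dim probe sets kept 4 members and left out Oas1g. Dim signals limit all 6 members under the olfactory receptor level.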

Other observations

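The mouse cluster holds further Oas1 copies that are not among the 10 genes described above. Oas1d read 6.04, 5.94 and 5.87 in Balb/c and 5.78, 5.76 and 5.89 in Balb/cBy, a difference of -0.14 ± 0.09 (SE) with overlapping groups. Oas1h read 6.13, 6.08 and 6.26 against 6.58, 6.21 and 6.27. Both were under the olfactory receptor level on every array.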
